A study of Caenorhabditis elegans with 2 samples.

Results

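The mir-51 family of Caenorhabditis elegans consists of the microRNA genes mir-51, mir-52, mir-53, mir-54, mir-55 and mir-56, which are 6 of the 261 microRNA genes of the annotation. The genes were chosen by name, after earlier results of these data had shown a strong region beside mir-51, and each candidate region with a summit within 2000 bp of one of them was taken. Position, signal and rank of the regions are therefore given as descriptions, with no test.

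The regions came from chromatin immunoprecipitation sequencing (ChIP-seq), which recovers DNA fragments bound to a protein. The protein was EYG-1, product of the gene eyg-1 (sequence name Y53C12C.1), a homeodomain transcription factor related to Drosophila Eyegone, fused at its C-terminus to GFP and FLAG and precipitated through the GFP from sonicated chromatin. All animals were hermaphrodite late embryos of the transgenic strain OP443, taken 4 h after the eggs had been isolated with bleach. The series has 1 group of 2 libraries, labelled biological replicates 1 and 3, from whole embryos of 1 transgenic line, so cell types cannot be told apart and no group without EYG-1 enters. The control library was not analysed here.

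A microRNA is a short RNA that is cut from a hairpin precursor and guides an Argonaute protein to messenger RNAs, mainly through its seed near the 5′ end. Genes of 1 family share the seed and can act on the same targets. In C. elegans the mir-51 family acts redundantly and is needed in the embryo, where attachment of the pharynx is 1 of its reported roles. Its seed places it close to the miR-100 microRNAs of other animals.

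The mature sequences, read from the RefSeq annotation of WBcel235, are shown because they define the family. Bases 2 to 8, the seed, are in capitals.
mir-51: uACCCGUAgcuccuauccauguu
mir-52: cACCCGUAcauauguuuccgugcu
mir-53: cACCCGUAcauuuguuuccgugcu
mir-54: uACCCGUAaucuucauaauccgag
mir-55: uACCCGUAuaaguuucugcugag
mir-56: uACCCGUAauguuuccgcugag

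All 6 carry the same seed, and the products are 22 to 24 nt long. The mature RNAs of mir-52 and mir-53 were equal at 23 of 24 bases and differed only by A12U, counted from the 5′ end with the base of mir-52 first. Bases were compared at equal positions from the 5′ end, with no gaps. By this measure no other pair was more alike than mir-54 and mir-56, with 63.6% of the compared bases equal. The least alike were mir-54 and mir-55, with 39.1%. A shift lowers the value: mir-55 and mir-56 had 50% equal, although both hold the runs guuuc and gcugag at shifted positions. The RNA with the seed comes from the 5′ arm of the hairpin in mir-51, mir-52 and mir-53, and from the 3′ arm in the other 3 genes. The most alike pair by this measure, mir-52 and mir-53, lie 3006 kb apart, and the neighbours mir-54 and mir-55 were the least alike.

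The 6 genes form 3 loci. On chromosome IV, mir-51 (WBGene00003279, chrIV:11026013-11026112) and mir-53 (WBGene00003281, chrIV:11027593-11027691) lie on the minus strand with 1480 bp between them. The gene mir-52 (WBGene00003280, chrIV:14034008-14034107) lies alone on the plus strand of the same chromosome. On chromosome X, mir-56 (WBGene00003284, chrX:13144691-13144787), mir-55 (WBGene00003283, chrX:13144827-13144924) and mir-54 (WBGene00003282, chrX:13144996-13145094) lie within 404 bp on the minus strand, inside an intron of the protein-coding gene F09A5.3, which runs the other way. Members of a cluster share regions and are not separate observations.

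In 4 lists of candidate regions, each region carries a signal value given by the authors' peak caller, on a scale that differs between lists. The pooled list (24215 regions, called on both libraries together) and the lists of replicate 1 (27360) and replicate 3 (24519) hold background regions by construction. The optimal list holds 519 regions that passed the irreproducible discovery rate (IDR) criterion, which asks how alike regions rank in replicates. A place in it does not by itself show a like rank in replicates 1 and 3, as the region downstream of mir-52 shows below. Signals of the optimal list run from 71.5 to 444.6, with a median of 91.6. Median signals were 18.2 in the pooled list, 9.93 in replicate 1 and 12.2 in replicate 3. The depth of the libraries is unknown, because the files hold no counts.

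All 6 members had a summit within 2000 bp in each of the 4 lists. A region of the permissive lists is common at that distance, as 69% of all microRNA genes had one in the pooled list, 72.8% in replicate 1 and 69% in replicate 3. In the optimal list the share over all microRNA genes was 13.8%, or 36 of 261. Within 100 bp, the pooled list had a summit at 3 members (mir-51, mir-52 and mir-53), against 14.2% of all microRNA genes. At that distance replicate 1 reached 2 members against 14.2% of all microRNA genes, and replicate 3 reached 3 members against 13.4%. The optimal list had a summit within 100 bp of mir-51 and mir-52 only, against 1.15% of all microRNA genes, or 3 of 261. The third gene was mir-8192 on chromosome II, named here after its value was seen, with a summit 13 bp upstream, a signal of 75.5 and rank 442 of 519. In all, the members had 12 distinct pooled regions, 16 in replicate 1, 12 in replicate 3 and 7 in the optimal list.

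**Figure D1:**
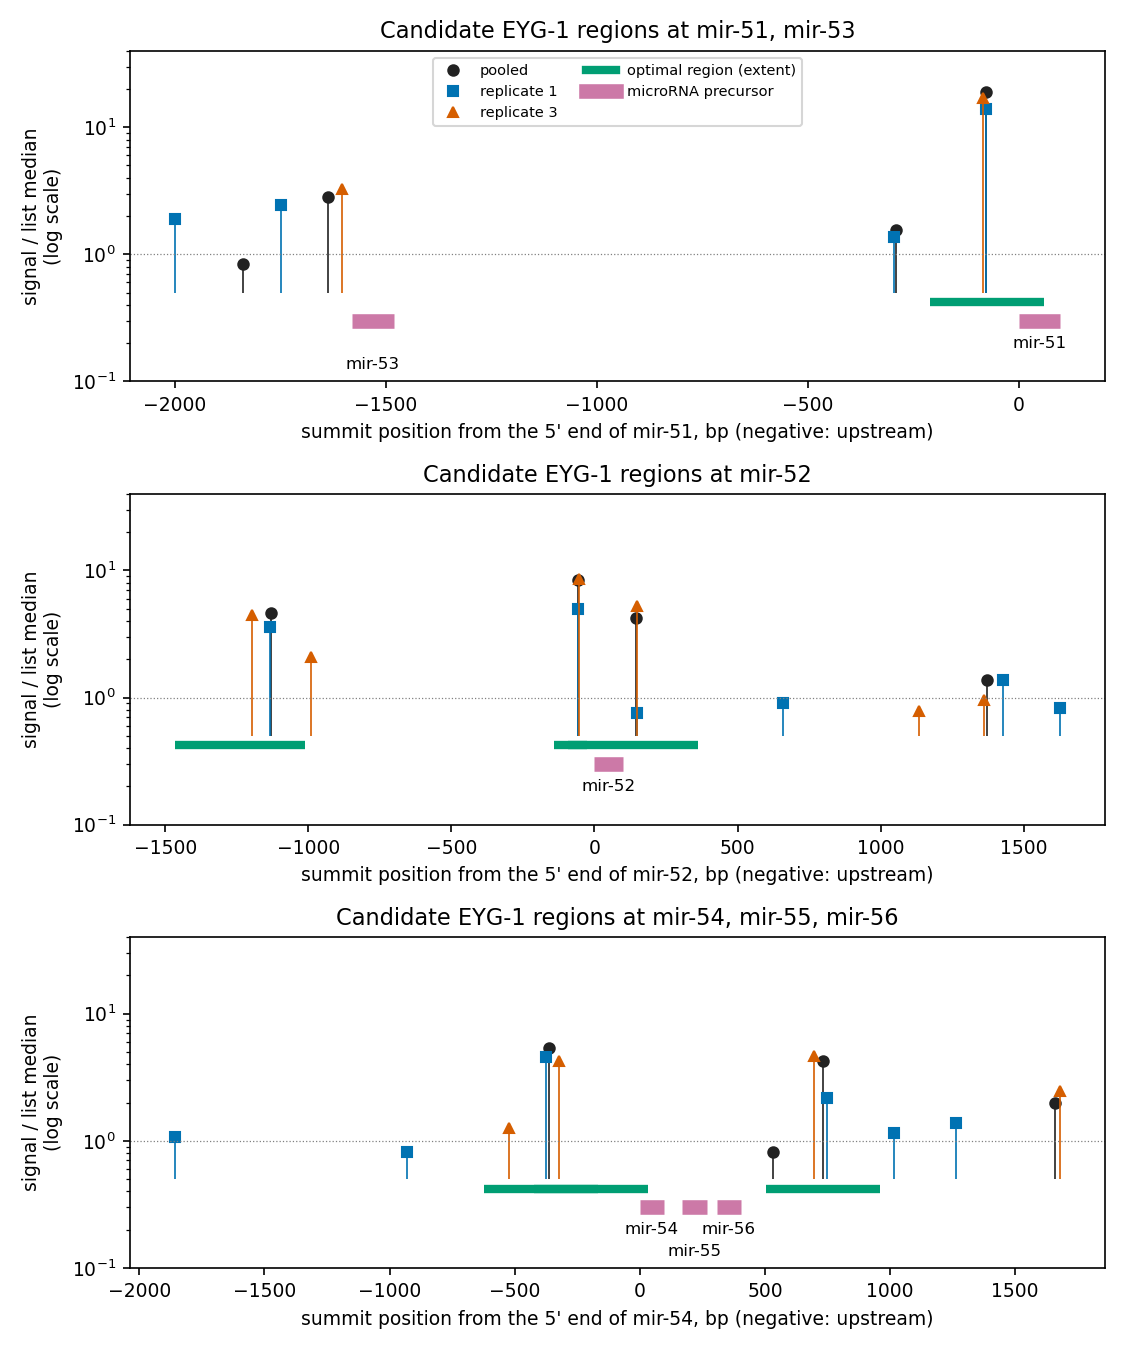
Summits of candidate regions at the 3 loci of the mir-51 family, by distance in bp from the 5′ end of mir-51, mir-52 or mir-54 in the direction of the gene (x axis) and by signal divided by the median signal of the same list (y axis, log scale). Symbols show the pooled list and the lists of both replicates, green bars the extent of optimal regions, purple bars the precursors and the dotted line the list median; the highest summits are those 77 to 85 bp upstream of mir-51.

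The strongest region of the family lay directly upstream of mir-51. Its pooled signal was 345.5, at chrIV:11025929-11026359, and it ranked 3 of 24215 regions, so that 0.0124% of the list was at least as high. The signal was 138.0 in replicate 1, rank 4, and 205.3 in replicate 3, rank 8. In the optimal list the signal was 369.6, rank 3 of 519. The region was thus among the 8 highest of each of the 4 lists. The summits agreed closely, at 77 bp upstream of the 5′ end of the precursor in the pooled and optimal lists, 78 bp in replicate 1 and 85 bp in replicate 3. A weaker pooled region farther upstream, with its summit at 11026403, had a signal of 28.0 and rank 3415.

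The summit at mir-51 does not lie in the microRNA gene but in F36H1.17, an unclassified non-coding RNA gene of 89 bp (chrIV:11026131-11026219) on the same strand. F36H1.17 ends 18 bp before the precursor of mir-51 begins, and the summit lies 30 bp inside it. Distance alone cannot tell apart a region that belongs to mir-51 from one that belongs to F36H1.17. The protein-coding neighbour alh-3, of the aldehyde dehydrogenase family, ends 143 bp past mir-51 on the other strand. The sequence of the optimal region is shown because its letters include a motif of another class of gene. It is the minus strand of chrIV:11026051-11026322, and capitals mark the matches to the A box consensus and to the B box core GGTTCGA of tRNA genes.
mir-51 region: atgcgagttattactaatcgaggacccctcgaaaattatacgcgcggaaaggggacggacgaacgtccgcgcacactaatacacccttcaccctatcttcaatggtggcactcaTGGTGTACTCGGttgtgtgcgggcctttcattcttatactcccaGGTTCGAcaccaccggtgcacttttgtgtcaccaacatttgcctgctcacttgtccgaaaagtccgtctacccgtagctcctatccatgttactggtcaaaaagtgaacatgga

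The A and B boxes are internal promoter elements of tRNA genes, bound by the RNA polymerase III factor TFIIIC. The B box core was among 6 motifs searched in all windows, and the A box was added after this sequence had been seen. The A box match spans bases 115 to 126 of the printed region and the B box core bases 159 to 165, with the summit at base 134 and 32 bp between the matches. Both lie in F36H1.17, and their first bases are 11 and 55 bp after its 5′ end. The mature mir-51 sequence, in its DNA letters, occupies bases 227 to 249 of the same region. Among all 101 bp windows centred on a summit, 9 of 519 optimal windows (1.73%) and 0.211% of the pooled windows held both matches on either strand. Of these 9 windows, 7 had an annotated tRNA gene within 100 bp of the summit and 2 did not, the mir-51 window being 1 of the 2. Of the 51 pooled windows with both matches, 21 had a tRNA gene within 100 bp and 30 did not. The nearest annotated tRNA gene lies 205.5 kb from mir-51 and the nearest snoRNA gene 57.0 kb away. Within annotated gene bodies and on the gene's strand, an A box followed by the B box core occurred in 11 of 7764 genes of the non-coding RNA class (0.142%) and in 106 of 612 tRNA genes (17.3%). Taken singly, the A box matched 216 of these non-coding RNA genes and 135 of the tRNA genes, so its pattern missed most tRNA genes. The B box core alone matched 85 (1.09%) and 395 (64.5%). A match of letters is a description and does not show that a factor binds there.

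The gene mir-53 had a much weaker region of its own. The nearest pooled summit lay 57 bp upstream of its 5′ end, with a signal of 51.3 and rank 824, and 3.40% of the pooled list was at least as high. In replicate 1 the nearest summit was 168 bp upstream with a signal of 24.1 and rank 969, and in replicate 3 it was 25 bp upstream with a signal of 39.7 and rank 445. The signals were 2.82 times the list median in the pooled list, 2.42 times in replicate 1 and 3.25 times in replicate 3. No optimal region lay at mir-53 itself. The optimal region within 2000 bp of mir-53 was that of mir-51, 1502 bp downstream of its 5′ end, so mir-53 counts as having an optimal region only through its neighbour. The end of hrg-5, a gene of the heme-responsive family, lies 598 bp away.

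The 101 bp window around the pooled summit of mir-53 is shown for comparison with mir-51, on the minus strand of chrIV:11027698-11027798, with the 11 bases centred on the summit in capitals.
mir-53 window: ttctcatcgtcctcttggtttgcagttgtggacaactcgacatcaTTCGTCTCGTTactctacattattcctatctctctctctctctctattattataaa

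It held no A box and no GGTTCGA. On the strand of the gene 70.3% of its bases were C or T, it held TAAT at 3 positions on either strand and TATAAA at 1, and its run of tctctc gave 6 overlapping matches to GAGAG.

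At mir-52 the strongest region again lay just upstream of the precursor. Its pooled signal was 152.4, rank 55, with the summit 56 bp upstream of the 5′ end. In replicate 1 the signal was 49.5, rank 155, with the summit 57 bp upstream, and in replicate 3 it was 104.6, rank 52, with the summit 53 bp upstream. The optimal region had a signal of 163.8, rank 46, and its summit lay 84 bp upstream. The signal was 8.39 times the list median in the pooled list, 4.98 times in replicate 1 and 8.58 times in replicate 3. Replicate 3 therefore placed this region higher than replicate 1, and the summits agreed to within 4 bp between the replicates.

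The mir-52 locus had optimal regions on both sides of the precursor. The weaker of the near regions lay downstream, with its pooled summit 145 bp past the 5′ end, a pooled signal of 76.5, rank 330, and an optimal signal of 97.8, rank 217. The replicates differed most at this region. In replicate 3 the signal was 64.6, rank 145, or 5.30 times the list median. In replicate 1 it was 7.57, rank 24574 of 27360, or 0.762 times the list median. Replicate 1 thus held it below its list median, and replicate 3 among its strongest 0.591%. A further optimal region, 1129 bp upstream in the pooled list, had a pooled signal of 83.6 (rank 269), with 35.98 in replicate 1 (rank 358) and 54.5 in replicate 3 (rank 207), and its optimal signal was 84.3 (rank 334). The weakest pooled region, with its summit at 14035378, had a signal of 25.01 and rank 4819 and no optimal counterpart.

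No protein-coding gene lies near mir-52, the nearest being Y37A1B.7 at 8.49 kb. Short non-coding RNA genes crowd the locus instead. The strongest pooled summit lies in both Y37A1B.330, on the strand of mir-52, and Y37A1B.335, on the other strand, whose exon overlaps mir-52. The optimal summit 84 bp upstream of mir-52 lies 58 bp upstream of the 5′ end of a further non-coding RNA gene (chrIV:14033569-14033866) on the other strand. The optimal summit 134 bp past the 5′ end of mir-52 lies 52 bp upstream of the 5′ end of Y37A1B.335. Position alone cannot assign these regions to mir-52 or to the non-coding RNA genes. The strongest optimal region is printed on the plus strand of chrIV:14033868-14033981, with the 11 bases centred on the summit in capitals. It shows the base composition on which the summit lies.
mir-52 region: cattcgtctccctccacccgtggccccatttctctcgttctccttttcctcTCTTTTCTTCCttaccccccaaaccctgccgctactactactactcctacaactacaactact

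In the 101 bp window around the optimal summit, 80.2% of the bases on the strand of mir-52 were C or T, and 74.3% in the window around the pooled summit. The corresponding share at mir-51 was 63.4%. The optimal window of mir-52 held 2 matches to GAGAG and none to TAAT or to either tRNA box. Despite their near-identical mature RNAs, mir-52 and mir-53 shared no run longer than 10 bases in the 300 bp upstream. Over the 13 pairs of members whose 300 bp upstream do not overlap, the longest shared run was 7 to 10 bases. The pair of mir-52 and mir-53 was at the top of this range, as was that of mir-54 and mir-56.

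The genes mir-54, mir-55 and mir-56 had no summit within 100 bp in any of the 4 lists, but regions on both sides of the cluster. The upstream region had its pooled summit 361 bp upstream of mir-54, which is 531 bp from mir-55 and 668 bp from mir-56. Its signal was 97.2 in the pooled list (rank 188), 45.4 in replicate 1 (rank 204) and 52.2 in replicate 3 (rank 228). The replicates thus gave it nearly the same place, with 0.746% of replicate 1 and 0.930% of replicate 3 at least as high. The optimal list had a pair of overlapping regions there, with summits 196 bp upstream of mir-54 (signal 101.5, rank 193) and 397 bp upstream (signal 76.4, rank 432). For the first of these, the nearest summits in the replicate lists were 178 bp away in replicate 1 and 125 bp away in replicate 3. That summit lies 19 bp upstream of F09A5.11, a non-coding RNA gene of 59 bp (chrX:13145213-13145271) on the strand of the cluster.

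The downstream region had its pooled summit 733 bp past the 5′ end of mir-54 and 426 bp past that of mir-56, with a signal of 76.8 and rank 326. Its signal was 21.7 in replicate 1 (rank 1239) and 57.0 in replicate 3 (rank 182), so replicate 3 again placed it higher. In the optimal list it had a signal of 96.4 and rank 229. The windows around the highest optimal summit on each side are shown on the strand of the cluster, at chrX:13145240-13145340 and chrX:13144311-13144411, with the 11 central bases in capitals.
X cluster upstream window: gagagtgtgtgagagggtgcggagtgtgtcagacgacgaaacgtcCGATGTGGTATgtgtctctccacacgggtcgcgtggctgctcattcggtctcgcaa
X cluster downstream window: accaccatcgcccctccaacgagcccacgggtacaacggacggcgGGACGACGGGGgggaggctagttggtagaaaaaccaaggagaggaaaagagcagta

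G and C made up 58.4% of the upstream window and 60.4% of the downstream one. The upstream window held 3 matches to GAGAG and the downstream window 1, and neither held TAAT or a box of tRNA genes. Both summits lie within the body of F09A5.3, so position alone cannot assign these regions to that gene or to the microRNAs. The remaining pooled regions of the cluster were weaker, with signals of 36.1 (rank 1786) and 14.7 (rank 20059).

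**Figure D2:**
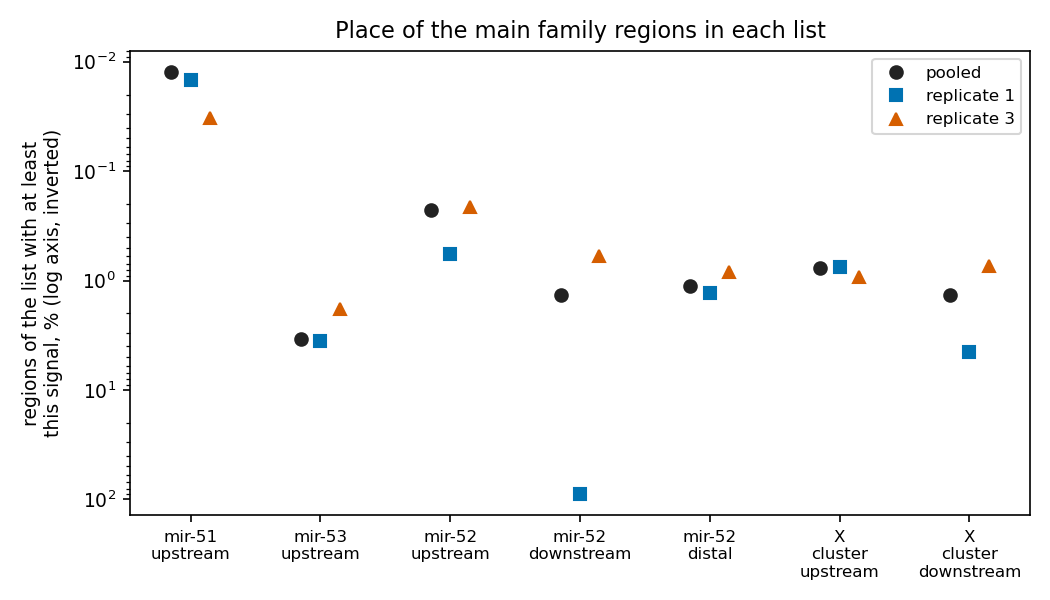
Share of each list with a signal at least as high as the region (y axis, percent, log scale, inverted so that stronger regions are higher) for 7 regions of the mir-51 family (x axis), in the pooled list and the lists of replicates 1 and 3, by the summit nearest to the pooled one. The mir-51 region lies at 0.0124 to 0.0326% in all 3 lists, and the downstream region of mir-52 at 89.8% in replicate 1 and 0.591% in replicate 3.

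Of the 12 pooled summits at the members, 7 had a summit within 100 bp in both replicate lists, and so did 5 of the 7 optimal summits. The share over all summits of these lists was not computed, so the counts cannot be called high or low. A match also takes no account of signal. The summit downstream of mir-52 counts as matched with a replicate 1 signal of 7.57, rank 24574. The other score of the regions, a −log10 q-value by the file format, did not separate the strongest of them. The highest score of the pooled list, 3.18, was shared by 766 regions, among them the upstream regions of mir-51, mir-52 and the X cluster, while mir-53 had 2.74.

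Among all 261 microRNA genes ordered by signal, the members took high positions but did not all precede the rest. The same region made mir-51 and mir-53 the highest in each list, and mir-52 took position 3 in the pooled, replicate 3 and optimal lists and 4 in replicate 1. The genes of the X cluster shared position 5 in the pooled and optimal lists, 6 in replicate 1 and 4 in replicate 3. The median over the microRNA genes with a region was a signal of 25.4 in the pooled list, 13.2 in replicate 1, 17.9 in replicate 3 and 89.7 in the optimal list. These positions follow from the choice of the family and support nothing further. Of the 23 optimal regions within 2000 bp of any microRNA gene, 7 lay at a member, and 30 microRNA genes outside the family had such a region. The 30 are genes and not regions, and some of them share a region. They include mir-55b, which has the optimal regions of the X cluster.

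**Figure D3:**
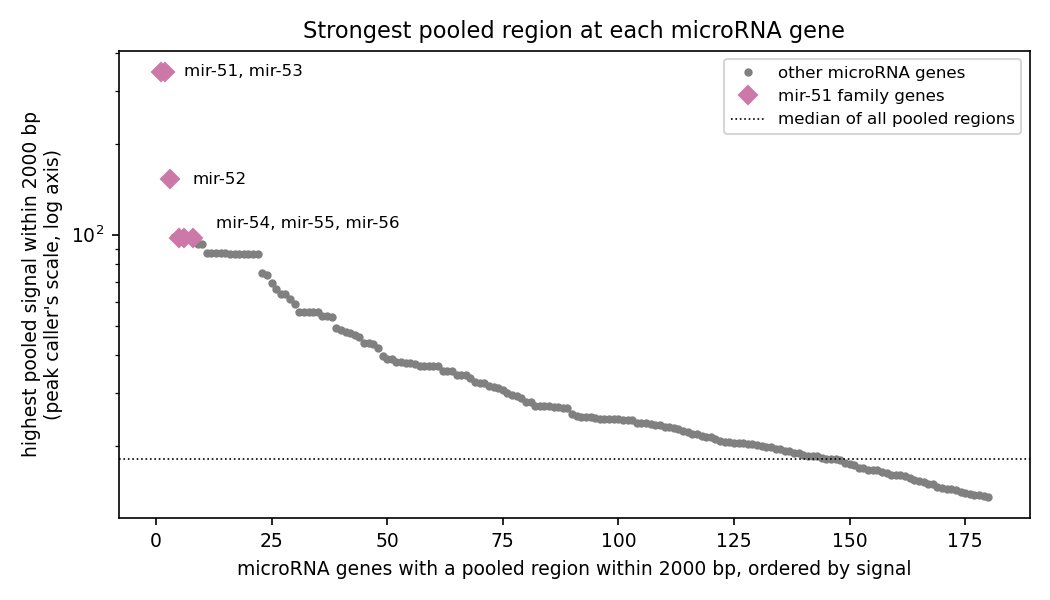
Highest pooled signal within 2000 bp (y axis, scale of the peak caller, log axis) of each of the 180 microRNA genes that have a pooled region, ordered by signal (x axis), with the mir-51 family as purple diamonds and the median of all pooled regions, 18.2, as a dotted line. The members lie at 345.5 (mir-51 and mir-53), 152.4 (mir-52) and 97.2 (the X cluster).

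The 3 microRNA genes outside the family with the highest pooled signal, which are also those nearest to mir-51 in signal, all lie on chromosome X. The highest was mir-237, a relative of lin-4, with a signal of 97.9 in the pooled list (rank 184), 51.4 in replicate 1, 48.6 in replicate 3 and 108.4 in the optimal list. Its pooled signal was above that of the X cluster and its summit lay 2073 bp past the 5′ end, far from the position seen at mir-51 and mir-52. The next was mir-55b, which is annotated on the plus strand over mir-55 and has the regions of the X cluster. The third was mir-1819, with a pooled signal of 93.5 (rank 203), an optimal signal of 90.8 and its pooled summit 1924 bp past the 5′ end. In replicate 1, mir-2215, named after its value was seen, also preceded the X cluster, with a signal of 48.8.

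EYG-1 regions also lay at some genes whose products make microRNAs or act with them. The list had 17 names, of which 16 matched the annotation, and ntl-1, another name of let-711, did not. All 16 had a pooled summit within 2000 bp of the annotated 5′ end, where 57.8% of all protein-coding genes had one. An optimal summit lay within 2000 bp of 4 of the 16, alg-1, ain-1, nhl-2 and xrn-2, where 2.89% of protein-coding genes had one. The difference from the background was not tested, and none of the 4 summits had a tRNA or snoRNA gene within 100 bp.

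The Argonaute gene alg-1 had an optimal region with its summit 1711 bp past the 5′ end and a signal of 74.97 (rank 452). Its strongest region had a signal of 46.2 in replicate 1 (rank 192) and 33.7 in replicate 3 (rank 631). The gene ain-1 encodes the GW182 protein that works with the Argonautes, and its optimal summit lay 834 bp upstream with a signal of 101.3 (rank 196). Its strongest region had a signal of 39.5 in replicate 1 (rank 274) and 50.1 in replicate 3 (rank 256), a like place in both. The gene nhl-2 encodes a TRIM-NHL cofactor of microRNA silencing, and its optimal summit lay 812 bp upstream with a signal of 79.1 (rank 389). The strongest region of nhl-2 had a signal of 40.7 in replicate 1 (rank 260) and 31.2 in replicate 3 (rank 753). The gene xrn-2 encodes a nuclease that degrades mature microRNAs, and its optimal summit lay 1236 bp upstream with a signal of 82.6 (rank 354). For xrn-2 the replicates differed. The region had a signal of 73.9 in replicate 1 (rank 35), whereas the strongest region in replicate 3 lay elsewhere, 384 bp past the 5′ end, with a signal of 20.0 (rank 2621).

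The other 12 genes had no optimal region, and their strongest pooled signals ran from 14.0 at let-711, a subunit of the deadenylase complex, to 48.1 at the second Argonaute gene alg-2. Those of the processing enzymes drsh-1, pash-1 and dcr-1 were 21.0, 35.4 and 14.8. The cadherin gene cdh-3, a reported target of the mir-51 family, had a pooled signal of 19.9 (rank 9483) with a summit 58 bp upstream, no summit within 2000 bp in either replicate list and none in the optimal list.

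**Figure D4:**
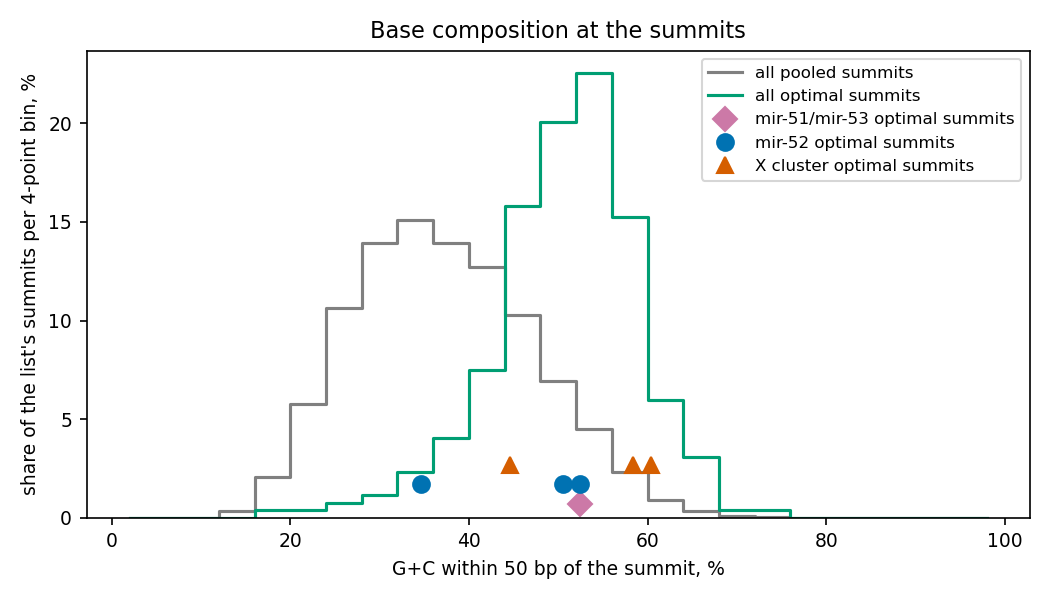
Share of G and C within 50 bp of the summit (x axis, percent) over all pooled and all optimal summits (lines, share of the list per bin of 4 percentage points, y axis in percent), with the 7 optimal summits of the mir-51 family as symbols at arbitrary height. The medians of the lists are 36.6% and 51.5%, and the symbols lie between 34.7% and 60.4%.

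The family's regions did not share 1 kind of sequence. G and C made up 52.5% of the windows at the optimal summits of mir-51 and mir-52 and 34.7% of that downstream of mir-52, against a median of 51.5% over the optimal list and 36.6% over the pooled list. The value at mir-52 depends on the summit used, as the window at its upstream pooled summit had 41.6%. Motifs were searched on both strands in the 101 bp windows. GAGAG occurred in 5 of the 7 optimal windows of the family, where 42.6% of all optimal and 17.4% of all pooled windows held it. TAAT, the core recognised by many homeodomains, occurred in 3 of the 7, where 33.1% of the optimal and 60.8% of the pooled windows held it. None of the 7 held TAATTA (1.54% of the optimal windows), TATAAA (4.62%) or the E-box CACGTG (1.73%). GGTTCGA and the A box occurred in 1 window each, that of mir-51, where 9.06% and 8.29% of the optimal windows held them. Among the 12 pooled windows of the family GGTTCGA occurred in 2, where 1.21% of all pooled windows held it. The second was the weak pooled summit at 14035378 near mir-52. The 7 optimal windows do not overlap, although some of the optimal regions around them do. A missing match says only that these letters are not in the window.

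At the edge of the 2000 bp limit, the last regions inside were a summit of replicate 1 exactly 2000 bp from mir-51, with a signal of 18.7, and another 1859 bp from mir-54, with a signal of 10.6. The first outside were that same summit at 2029 bp from mir-55, and pooled summits 2201 bp from mir-56 (signal 15.7) and 2312 bp from mir-54 (signal 19.6). None of these was an optimal region.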

How the data were processed

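ChIP-seq region lists in the ce11 build (identical to WBcel235) were used as deposited by the authors. Signal is the signal value that the authors' peak caller gave to each region. A further column is a −log10 q-value by the narrowPeak format of the deposited lists. For the optimal list it is not known whether this column holds q-values or the irreproducible discovery rate, and it was not used. Regions of each replicate were called on 1 library against 1 control, pooled regions on both libraries together, and the optimal list was derived from these, per the notes deposited with the libraries. It is not a subset of the pooled list, as 133 of its 519 regions have the coordinates of a pooled region. Aligner, peak caller and versions are not given in the sources used here. Lists in the ce10 build were not used.

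Positions are counted from 1, and distances run from the summit to the nearer edge or the 5′ end of the gene in Ensembl release 115. Ranks are by signal within a list. Sequences came from the RefSeq FASTA of the same build, and mature microRNAs from its annotation. Python 3.11.15, pandas 2.3.3, numpy 2.4.6 and pysam 0.24.0 were used, and the distance calculation was tested on simulated data. No test between groups was possible with 1 group. The members, the gene list and the motifs were chosen with earlier results of these data known. The genes named are the members, their neighbours, the 3 other microRNA genes with the highest pooled signal, the 3 nearest to mir-51 in signal and the listed microRNA pathway genes; others are said to be named after their values were seen.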

Additional observations from a re-analysis of the deposited data

How the results depend on the processing

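The number of members with an optimal region was 6 within 2000 bp, 5 within 1000 bp, 5 within 500 bp and 2 within 100 bp. It was 6 in the part of the optimal list above its median signal and also when any overlap counted. The number with a pooled region was 3 within 100 bp and 6 under the other alternatives, including either replicate list alone. Without replicate 3 or replicate 1, the rank of the strongest region was 4 to 8 for mir-51, 52 to 155 for mir-52 and 182 to 204 for the X cluster. In the pooled list it was 3, 55 and 188. For the X cluster these ranks belong to different regions. Rank 182 is the downstream region in replicate 3, where the upstream region ranked 228, and the downstream region ranked 1239 in replicate 1. Measured from the 5′ end of the precursor, 34 microRNA genes had an optimal summit within 2000 bp, in place of 36. Of the other values, 15 were classed as the same and 9 as moved, all of the latter being ranks. These include ranks by −log10 q in place of signal, which were 1 for every member because 766 pooled regions share the highest score. The classes do not follow the size of the change. For mir-52, 1 in place of 55 was classed as the same, and for the X cluster 204 in place of 188 was classed as moved. Ranks were counted for each gene, and shares of G and C for each locus. Genes of a cluster share their strongest region, so its rank was counted for each of them. The 15 and 9 are therefore not numbers of separate results. The limit beyond which a value was classed as moved is not given here. No paired analysis was possible because the series has only 1 group. Depth is unknown, and a region missing from a list is no evidence that EYG-1 was missing there.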
